A study of Mus musculus with 3 samples.

Results

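The insulin-like growth factor (IGF) system is described here through 10 genes, taken by name from a table of 56833: the ligands Igf1 and Igf2, the receptors Igf1r and Igf2r, and the binding proteins Igfbp2 to Igfbp7. All 10 were in the table, and 9 passed the minimum of a mean of 50 normalized counts over the libraries, a filter that 11873 genes passed. Igf2 did not. RNA came from mouse ankle synovium cells that the labels call telocytes, an interstitial cell type with long processes. The mice carried Efhd1CreER, an inducible Cre recombinase driven from the Efhd1 gene, and Ai9, a tdTomato reporter that Cre switches on, and the cells were sorted for tdTomato. All groups shared this genotype and differed in the collagen-coated plate on which cells were kept for 24 h, called soft at 0.2 kPa, intermediate at 8 kPa and stiff at 64 kPa. The number, age and strain of the animals are not given in the sources used here. The series title asks how matrix stiffness acts on the differentiation of these cells into fibroblasts.

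Each stiffness had 1 library, so every difference is without replicates and without a p-value, and differences between cultures cannot be told apart from differences between plates. The libraries held 25487064 (soft), 28081600 (intermediate) and 26474862 reads (stiff). Values are read counts per gene that were scaled by a factor of each library, called normalized counts. Differences are log2 ratios with a pseudocount of 1, and each has an exact 95% Clopper-Pearson interval that covers counting error only. As a check of the label, Efhd1 itself had 10, 5 and 3 reads on the soft, intermediate and stiff plates. Of 7 telocyte markers, Efhd1 included, 4 had a mean of at least 50 normalized counts. Pdgfra, which is also on the list of fibroblast markers, had 5884, 6298 and 5118, Cd34 had 235, 242 and 318, Foxl1 had 238, 233 and 186, and Pi16 had 189, 185 and 258. Below that mean were Kit, with 42.0, 38.7 and 45.1, and Dpp4, with at most 2.05.

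IGF1 and IGF2 are secreted peptides that act mainly through IGF1R, a receptor tyrosine kinase that signals through IRS adaptors to PI3K and AKT and restrains FOXO transcription factors. IGF2R has no kinase and carries IGF2 and mannose 6-phosphate-tagged enzymes to lysosomes. IGFBP2 to IGFBP6 bind the ligands with high affinity and hold them away from the receptor or close to it, and IGFBP7 is a related protein of low affinity. In joints, IGF1 is known as a growth factor for cartilage, and macrophages are a known source of it.

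In these libraries Igf1, Igf1r and Igf2r were higher on the stiffer plates at both steps, Igfbp5 was lower at both steps, and Igfbp3 was lower on the stiff plate alone. For Igf2r, and for the first step of Igf1r, the direction depended on a trend of the ratios with transcript length and GC content that is described below. Igfbp2, Igfbp4, Igfbp6 and Igfbp7 stayed within 0.11 on the log2 scale over all 3 comparisons. As deposited, none of the 9 genes reached a log2 ratio of 1 in size in any comparison. Over all 11873 genes, 3.6% did from soft to stiff, 0.168% from soft to intermediate and 1.25% from intermediate to stiff. With the trend subtracted, Igfbp5 stood at -1.04 from soft to stiff, and 0.411% of all genes were then lower past 1. At the milder size of 0.5, 3 of 9 passed from soft to stiff as deposited (Igf1 and Igf1r higher, Igfbp5 lower), beside 15.6% of all genes. None passed from soft to intermediate, where 4.6% of all genes did. Only Igfbp5 passed from intermediate to stiff, where 8.84% did. With the trend subtracted, Igf1r stood at 0.20 from soft to stiff and no longer passed 0.5, which 11.7% of all genes then passed. As deposited, the median log2 ratio of the 9 genes was -0.03, 0.04 and 0.03 in the order of these comparisons, and that of all genes was 0.00, 0.01 and 0.01.

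**Figure D1:**
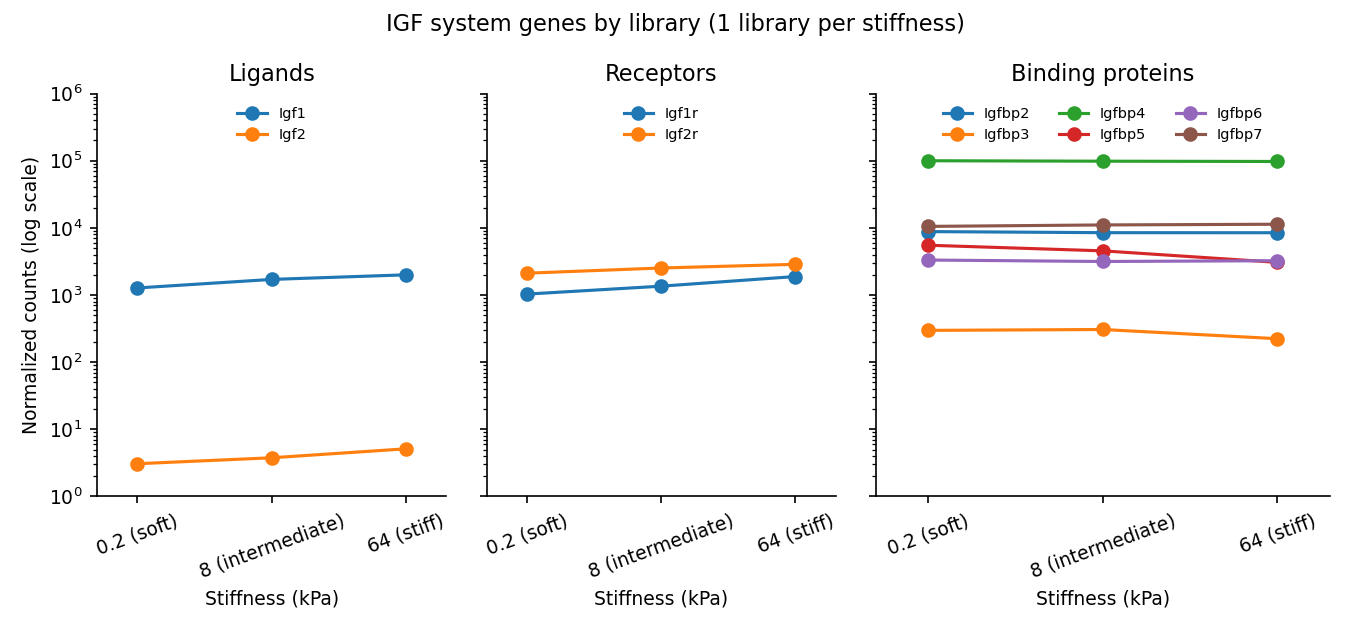
Normalized counts on a log axis for each of the 10 genes in the soft (0.2 kPa), intermediate (8 kPa) and stiff (64 kPa) library, 1 point per library, split into ligands, receptors and binding proteins. Igfbp4 lies highest in every library and Igf2 lowest. Igfbp5 lies above Igfbp6 in the soft and the intermediate library and slightly below it in the stiff library.

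The promoters of the 3 genes past 0.5 from soft to stiff as deposited are shown. They run from 250 bases before to 50 bases after the start of transcription, from RefSeq on GRCm38.p6, 5′ to 3′ on the strand of the gene, and capitals mark CG dinucleotides.
Igf1 (chr10:87860861-87861160, plus strand): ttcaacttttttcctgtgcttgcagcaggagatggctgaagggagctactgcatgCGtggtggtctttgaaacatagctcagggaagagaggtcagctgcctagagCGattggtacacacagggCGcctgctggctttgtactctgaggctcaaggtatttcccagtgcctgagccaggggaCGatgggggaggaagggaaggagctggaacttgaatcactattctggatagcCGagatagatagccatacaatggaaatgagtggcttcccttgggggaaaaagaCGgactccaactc
Igf1r (chr7:67952007-67952306, plus strand): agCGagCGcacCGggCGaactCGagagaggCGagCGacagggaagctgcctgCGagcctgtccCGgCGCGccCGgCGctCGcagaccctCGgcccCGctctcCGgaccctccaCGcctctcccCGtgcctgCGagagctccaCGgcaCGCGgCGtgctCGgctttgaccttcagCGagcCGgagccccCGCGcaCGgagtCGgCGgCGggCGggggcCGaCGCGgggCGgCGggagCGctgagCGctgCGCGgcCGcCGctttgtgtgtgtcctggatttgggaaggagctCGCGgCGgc
Igfbp5 (chr1:72874816-72875115, minus strand): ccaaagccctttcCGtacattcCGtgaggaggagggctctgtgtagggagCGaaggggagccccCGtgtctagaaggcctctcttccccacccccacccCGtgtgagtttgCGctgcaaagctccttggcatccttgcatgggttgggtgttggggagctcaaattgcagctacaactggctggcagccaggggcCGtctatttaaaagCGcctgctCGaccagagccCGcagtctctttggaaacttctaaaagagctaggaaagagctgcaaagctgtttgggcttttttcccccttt
The window of Igf1r held 48 CG dinucleotides, that of Igfbp5 10 and that of Igf1 6, beside a median of 7 over 32851 promoters of the table. Their GC contents were 76.0% (Igf1r), 56.3% (Igfbp5) and 52.3% (Igf1). The promoters of all 10 genes, 14 windows because Igf2 has 4 and Igfbp2 has 2, had a median GC content of 64.0% and the table as a whole 52.7%. 5 motifs were searched on both strands: TGAGTCA or TGACTCA (AP-1), GGAATG (TEAD factors), GTAAACA (FOXO), CAGACA (SMAD) and the CArG box of SRF. Of these, only the TEAD letters occurred in the windows printed above, once, as CATTCC from position -233 of Igfbp5, and 14.7% of all promoters held them. The windows of Igf1 and Igf1r held none of the letters searched. Elsewhere in the family an AP-1 motif stood at position -39 of 1 of the Igfbp2 windows, and 5.20% of all promoters held that motif. A CArG box stood at position -155 of 1 of the Igf2 windows, against 1.63% of all promoters. The Igf2 windows also held 4 TEAD matches, spread over 3 of the 4 windows, and 2 SMAD matches in 2 of them, and 21.0% of all promoters held the SMAD letters.

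Igf1, the main circulating and local IGF ligand, lies on chromosome 10 of GRCm39 (plus strand, 87693642 to 87772904), and its canonical transcript has 4 exons and 7073 nt. It had 1273 normalized counts on the soft plate, 1706 on the intermediate and 1997 on the stiff plate. The values climbed with each stiffness, and the counting intervals of the steps just overlapped. The log2 ratio was 0.42 from soft to intermediate (interval 0.32 to 0.53), 0.23 from intermediate to stiff (0.13 to 0.32) and 0.65 from soft to stiff (0.55 to 0.75). Of all genes tested, 8.14% had a stiff to soft ratio at least as high. In bulk RNA, a change in the number of cells that express a gene and a change in RNA per cell cannot be told apart.

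Markers of several other cell types moved with Igf1, those of macrophages among them. Of 14 macrophage markers, 13 passed the minimum and all 13 were higher in the stiff than in the soft library, with a median log2 ratio of 1.25, and no marker was at 0. Their summed level was 30215 normalized counts on the soft plate, 37265 on the intermediate and 64786 on the stiff plate. Adgre1, the F4/80 antigen, had 2395, 3404 and 5785, and Csf1r, the receptor of the macrophage growth factor, had 1267, 1725 and 3359. Endothelial markers were scarce: 1 of 10 passed the minimum, with a summed level of 193, 249 and 228. The one that passed was Egfl7, at -0.13 (-0.52 to 0.26) from soft to stiff. Those below the minimum went both ways. Cdh5 had 5, 3 and 0 reads and Pecam1 12, 13 and 4, while Kdr had 21, 27 and 45 and Flt1 10, 21 and 25. Of 8 mural markers 5 passed, with a summed level of 3178, 4136 and 4139 on the soft, intermediate and stiff plates, and Higd1b had no read. From soft to stiff 3 of these 5 were higher and 2 lower. Mcam stood at 0.86, Cspg4 at 0.53, Ndufa4l2 at 0.30, Notch3 at -0.05 and Rgs5 at -0.08. After subtraction of the length and GC trend these were 0.76, -0.27, 0.38, -0.87 and 0.02, in the same order. Cspg4 alone had 1642, 2496 and 2376 normalized counts. The 9 fibroblast markers all passed, and their summed level was 216324, 259197 and 310155. The median over these 9 was -0.01 from soft to stiff, with 4 higher and 5 lower, from Col1a1 at 0.95 to Fap at -0.52. Of 6 markers of lining fibroblasts 4 passed, with a summed level of 5567, 6573 and 8600, and went both ways: Hbegf stood at 0.73, Prg4, the joint lubricant lubricin, at 0.62, Has1 at 0.02 and Htra4 at -0.11. Of 6 chondrocyte and bone markers 3 passed, with a summed level of 1495, 2103 and 2156, and Col2a1, the main cartilage collagen, stood at 1.46, Runx2 at 0.38 and Sox9 at 0.05 (-0.14 to 0.24). Of 6 skeletal muscle markers only Acta1 passed, at 1.88, with a summed level of 175, 304 and 638, while Myh2 and Myh4 had no read. Of 4 Schwann cell markers only Mbp passed, at 1.22, with a summed level of 137, 176 and 293. The part of any of these cells in the Igf1 ratio was not tested.

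Igf2, the fetal growth ligand, is expressed from the paternal allele and lies on chromosome 7 (minus strand, 142204503 to 142220694). It had 3 reads on the soft plate, 4 on the intermediate and 5 on the stiff plate, at or close to the 3 reads that a count of 0 allows. From soft to stiff the log2 ratio was 0.59, with an interval from -1.62 to 3.42, so no difference was detectable at this depth. Igf1 was thus the ligand that these libraries contained in quantity. Per length of transcript its level was 217 times that of Igf2 on the soft plate, 237 times on the intermediate and 204 times on the stiff plate, ratios that rest on the few Igf2 reads.

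Igf1r, the signalling receptor, lies on chromosome 7 (plus strand, 67601518 to 67883416), and its canonical transcript of 12466 nt has 21 exons. It had 1031 normalized counts on the soft plate, 1353 on the intermediate and 1883 on the stiff plate. Each step was upward, and the counting intervals of the steps overlapped. The log2 ratio was 0.39 from soft to intermediate (0.27 to 0.51), 0.48 from intermediate to stiff (0.38 to 0.58) and 0.87 from soft to stiff (0.76 to 0.98). As deposited, this was the highest stiff to soft ratio among the 10 genes, and 4.51% of all genes tested had one at least as high. The ratio from soft to intermediate turned to -0.06 once a trend with transcript length and GC content, described below, was subtracted. The stiff to soft ratio of Igf1r was then 0.20, below that of Igf1 at 0.83.

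Igf2r, the clearance receptor, is expressed from the maternal allele in most mouse tissues. It lies on chromosome 17 (minus strand, 12901293 to 12988614), with 48 exons in a canonical transcript of 8950 nt. It had 2112, 2524 and 2862 normalized counts on the soft, intermediate and stiff plates. The log2 ratio was 0.26 from soft to intermediate (0.17 to 0.34), 0.18 from intermediate to stiff (0.10 to 0.26) and 0.44 from soft to stiff (0.36 to 0.52). All 3 ratios turned to the other side of 0, between -0.08 and -0.03, with the length and GC trend subtracted. Of all genes tested, 13.9% had a stiff to soft ratio at least as high as deposited.

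Set against each other per length of transcript, Igf1r stood at 0.351 of Igf2r on the soft plate, 0.385 on the intermediate and 0.472 on the stiff plate. Over the union of all exons these quotients were 0.232, 0.254 and 0.312. Against Insr, the insulin receptor whose chains can pair with those of IGF1R, the level of Igf1r was 1.28, 1.44 and 1.91 times as high in the same order. Insr itself had 607, 705 and 743 normalized counts and a stiff to soft log2 ratio of 0.29 (0.13 to 0.45). Both quotients were highest in the stiff library. After subtraction of the length and GC trend, the log2 ratio from soft to intermediate was -0.06 for Igf1r, 0.07 for Insr and -0.05 for Igf2r. From soft to stiff it was 0.20 for Igf1r, 0.13 for Insr and -0.08 for Igf2r. The corrected ratio of Igf1r was thus below that of Insr on the first step and slightly above it from soft to stiff.

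**Figure D2:**
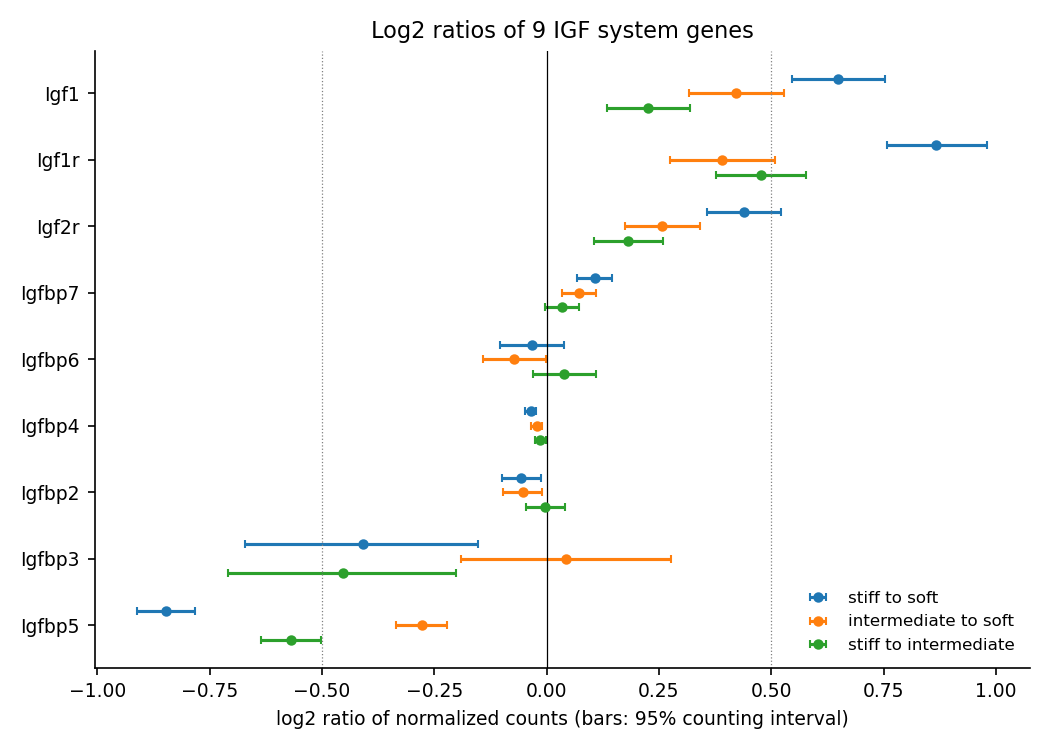
Log2 ratios of normalized counts (x axis) for the 9 genes past the minimum (y axis) in the 3 comparisons, with bars for the 95% counting interval and dotted lines at 0.5 in size. As deposited, Igf1, Igf1r and Igf2r lie right of 0 in each comparison, Igfbp5 lies left of 0 in each, and Igfbp4, Igfbp2, Igfbp6 and Igfbp7 lie close to 0.

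Among the binding proteins Igfbp5 differed most, a secreted protein known to bind extracellular matrix as well as IGFs. It lies on chromosome 1 (minus strand, 72897091 to 72914043), with 4 exons and a canonical transcript of 6006 nt. It had 5505 normalized counts on the soft plate, 4541 on the intermediate and 3062 on the stiff plate, lower at each step. The log2 ratio was -0.28 from soft to intermediate (-0.33 to -0.22), -0.57 from intermediate to stiff (-0.63 to -0.50) and -0.85 from soft to stiff (-0.91 to -0.78). Only 0.716% of all genes tested had a stiff to soft ratio at least as low. The stiff to soft ratio was -1.04 once the length and GC trend was subtracted.

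Igfbp2, an IGF-binding protein with an integrin-binding sequence, is the neighbour of Igfbp5 on chromosome 1 (plus strand, 72863606 to 72891634). A gap of 5456 bases separates the 3′ ends of these genes. Igfbp2 had 8790 normalized counts on the soft plate, 8469 on the intermediate and 8452 on the stiff plate, and a stiff to soft log2 ratio of -0.06 (-0.10 to -0.01). Per length of transcript, Igfbp5 stood at 0.138 of its neighbour on the soft plate, 0.118 on the intermediate and 0.0796 on the stiff plate. Over the union of all exons the quotients were 0.217, 0.186 and 0.125, in the same order. The neighbouring genes thus had different profiles across these plates.

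Igfbp3, the main carrier of IGFs in serum, lies on chromosome 11 (minus strand, 7156086 to 7164179). It had 297 normalized counts on the soft plate, 306 on the intermediate and 224 on the stiff plate. The first 2 libraries could not be told apart by counting error, with a log2 ratio of 0.04 (-0.19 to 0.28). The stiff library was lower than the intermediate one by a log2 ratio of -0.45 (-0.71 to -0.20) and than the soft one by -0.41 (-0.67 to -0.15). Its neighbour Igfbp1, a liver product 3539 bases away on the plus strand, had no read in any library.

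Igfbp4, an inhibitor of IGF action that is inactivated by the protease PAPP-A, was the most abundant of the 10 genes in every library. It lies on chromosome 11 (plus strand, 98932064 to 98945218), and had 99724, 98211 and 97278 normalized counts on the soft, intermediate and stiff plates. By number of reads it ranked 12, 15 and 19 among all genes in the same order. Its log2 ratio of stiff to soft was -0.04, and the interval from -0.05 to -0.02 is narrow because of the depth. Both single steps had intervals below 0 as well, at -0.02 and -0.01, so that by counting error alone Igfbp4 and Igfbp5 were lower in both steps, while the size for Igfbp4 was slight.

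Igfbp6, which prefers IGF2, lies on chromosome 15 (plus strand, 102052697 to 102057953) and had 3315, 3153 and 3241 normalized counts. Its log2 ratio was -0.07 from soft to intermediate (-0.14 to -0.002) and -0.03 from soft to stiff (-0.10 to 0.04), and no difference between the soft and the stiff library was detectable. Igfbp7, a vascular and stromal matrix protein, lies on chromosome 5 (minus strand, 77493130 to 77555931) and had 10504, 11040.0 and 11310.3 normalized counts. Its stiff to soft log2 ratio was 0.11 (0.07 to 0.15).

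Levels of different genes were compared in TPM, reads per kb of canonical transcript scaled to the same total in each library, with exact Poisson intervals for counting error. In the soft library the order was Igfbp4 at 2273, Igfbp2 at 582, Igfbp6 at 238, Igfbp7 at 172, Igfbp5 at 80.2, Igf2r at 20.6, Igf1 at 15.7, Igfbp3 at 9.62, Igf1r at 7.23 and Igf2 at 0.0725 TPM. No intervals of neighbours in this order overlapped. The order was the same in the intermediate library, where the intervals of Igfbp3 (8.94 to 11.1 TPM) and Igf1r (9.09 to 10.1 TPM) overlapped. In the stiff library Igf1r stood above Igfbp3, at 13.2 (12.6 to 13.8) against 7.24 TPM (6.31 to 8.26). The other places did not change. These places depend on the gene models. The canonical transcript of Igfbp7 has 5339 nt and its shortest coding transcript 1133 nt, and with the latter it stood at 810 TPM in the soft library, above Igfbp2. The same lengths are 7073 and 510 nt for Igf1, which stood at 218 TPM with the shorter one, above Igfbp7. They are 12466 and 3553 nt for Igf1r, which then stood at 25.4 TPM, above Igf2r. Each gene was changed alone, and which transcripts these cells used was not tested.

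The 6 binding proteins together summed to 3355 TPM on the soft plate, 3312 on the intermediate and 3248 on the stiff plate. Igfbp4 took 67.7%, 68.2% and 68.3% of that sum, and Igfbp2 took 17.4%, 17.1% and 17.2%. The shares of both were thus nearly the same on the 3 plates. Igfbp5 took 2.39%, 2.01% and 1.37%, Igfbp3 took 0.287%, 0.302% and 0.223%, and Igfbp7 took 5.13%, 5.51% and 5.71%. With its shortest coding transcript Igfbp7 took 20.3%, 21.6% and 22.2%. The Igf1 level was 0.00469 of the summed binding proteins on the soft plate, 0.00643 on the intermediate and 0.00760 on the stiff plate. With the shortest Igf1 transcript its level was 13.9 times as high in each library, so the size of this quotient rests on the gene model.

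The log2 ratios of all genes followed transcript length and GC content, which bears on the long transcripts of this family. Over 11674 genes, not independent of each other, the stiff to soft ratio had a Spearman correlation of 0.26 with length and of 0.26 with GC content. A local linear fit gave the ratio typical of genes with the length and GC content of each family member. For Igf1r it was 0.67, which leaves 0.20 of the observed 0.87. For Igf2r it was 0.52, above the observed 0.44. Igf1, with a long transcript but a GC content of 38.0%, had a trend of -0.18, which leaves 0.83. For Igfbp5 the trend was 0.19. The differences of Igf1 and Igfbp5 were thus larger against genes of like length and GC content, that of Igf1r smaller, and that of Igf2r absent or slightly opposite.

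**Figure D3:**
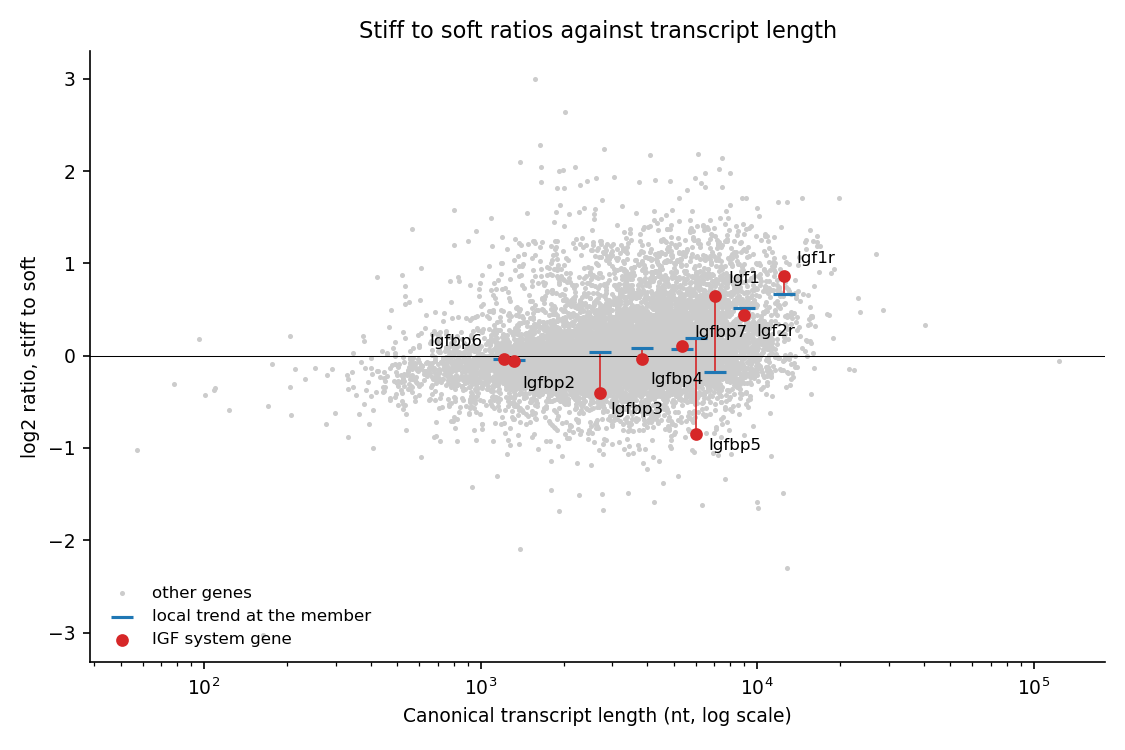
Stiff to soft log2 ratio (y axis) against canonical transcript length in nt (x axis, log scale) for 11674 genes in grey and 9 IGF system genes in red, each joined to a blue bar for the local trend with length and GC content. Igf2r (0.44) lies close to its bar (0.52), Igf1r (0.87) lies above its bar (0.67), and Igf1 and Igfbp5 lie far from theirs on opposite sides.

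Patterns over the 3 libraries were compared by the distance in the plane of the intermediate to soft and stiff to soft log2 ratios, among 10667 genes whose mean reached 100. Nearest to Igf1r were Scaf4 (distance 0.00392), Wiz (0.0195) and Raph1 (0.0227), with stiff to soft ratios of 0.87, 0.86 and 0.88. Nearest to Igfbp5 were Mdfi (0.0215), Pcp4l1 (0.0253) and Epha3 (0.0325), with stiff to soft ratios of -0.85, -0.83 and -0.82. Within a distance of 0.05 there were 21 genes around Igf1r and 6 around Igfbp5. With 3 libraries such likeness is a description only.

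Genes that act on the binding proteins were taken from a list of 14 proteases and inhibitors, of which 13 passed the minimum, with 8 higher and 5 lower in the stiff than in the soft library. Their median log2 ratio was 0.16 beside 0.00 for all genes, and it was -0.06 with the length and GC trend subtracted. Mmp3, stromelysin, which can cleave IGFBPs, was the lowest and the only gene past 1 from soft to stiff, beside 3.6% of all genes. It had 43770.3 normalized counts on the soft plate, 33751 on the intermediate and 19885 on the stiff plate. Its stiff to soft ratio was -1.14 (-1.16 to -1.11). Adam12, another IGFBP-cleaving protease, was the highest as deposited, with 745, 1044 and 1249 and a ratio of 0.74 (0.61 to 0.88). That ratio was 0.46 with the trend subtracted, below Ctsd at 0.56 and Plau at 0.54. Pappa, which encodes PAPP-A, had 498, 577 and 579. Its ratio was 0.22 (0.04 to 0.40), and -0.06 with the trend subtracted. The stanniocalcins, which inhibit PAPP-A, were both lower in the stiff library: Stc1 had 791, 683 and 501, with a ratio of -0.66 (-0.82 to -0.49), and Stc2 had 135, 144 and 92.3, with a ratio of -0.55 (-0.96 to -0.15). Pappa, Stc1, Stc2, Ctsd and Plau were named after their values were seen.

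Of 9 relatives of the family outside the 10 genes, 3 passed the minimum. Esm1, endocan, and Kazald1, both with an IGFBP-type domain, were lower in the stiff library, with log2 ratios of -0.62 (-0.77 to -0.48) and -0.57 (-0.67 to -0.47). Esm1 had 960, 777 and 622 normalized counts and Kazald1 had 2101, 1932 and 1413 on the soft, intermediate and stiff plates. Kazald1 was named after its values were seen. The third was Insr, given above.

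Of 16 receptor adaptors and feedback genes, 14 passed the minimum, with 7 higher and 7 lower in the stiff than in the soft library and a median log2 ratio of 0.07. Irs2, the adaptor that FOXO factors induce, was the highest with 336, 384 and 537 normalized counts and a ratio of 0.67 (0.47 to 0.88). That ratio was -0.07 with the length and GC trend subtracted. Enpp1, an ectoenzyme known to inhibit the insulin receptor, was the lowest, with 8448, 8777 and 5456 and a ratio of -0.63 (-0.68 to -0.58). None of these genes reached 1 in size.

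All 25 genes of the PI3K, AKT and mTOR relay passed, with 16 higher and 9 lower and a median log2 ratio of 0.11. Past 1 from soft to stiff as deposited were 2 of 25 genes, beside 3.6% of all genes tested. They were Inpp5d, the SHIP1 phosphatase of blood cells, and Pik3cd, the PI3K catalytic subunit enriched in leukocytes. Inpp5d had 149, 178 and 445 normalized counts on the soft, intermediate and stiff plates and a ratio of 1.58 (1.31 to 1.86). Pik3cd had 110, 136 and 263 and a ratio of 1.25 (0.93 to 1.60). Correction for transcript length and GC content lowered Pik3cd to 0.79 and Inpp5d to 1.39. Only Inpp5d then stayed past 1, beside 2.54% of all genes. Both genes moved with the macrophage markers given above, and the part of those cells in the ratios was not tested. The lowest was Pik3r1, a regulatory subunit, at -0.35 (-0.45 to -0.26). Akt1, the kinase downstream of the receptor, had 9350, 8905 and 10156 normalized counts and was named after its values were seen.

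Of 18 FOXO factors and targets, 15 passed the minimum, with 8 higher and 7 lower in the stiff than in the soft library and a median log2 ratio of 0.04. Irs2, given above, was the highest. Sesn1, a stress-induced sestrin, was the lowest at -0.41 (-0.58 to -0.24), with 676, 705 and 510 normalized counts. Sesn3 lay almost level with it, also at -0.41 (-0.50 to -0.31). With the length and GC trend subtracted, Sesn3 was the lower of these genes, at -0.52 against -0.32. Sesn3 was named after its values were seen. The growth hormone axis, which drives Igf1 in liver, had 6 of 7 genes past the minimum, with 5 higher and 1 lower and a median of 0.08. The lowest was Socs2, a STAT5-induced inhibitor, at -0.28 (-0.35 to -0.20), and the highest was Cish at 0.18 (-0.16 to 0.53). Ghr, the growth hormone receptor, had 1623, 1668 and 1791 normalized counts and was named after its values were seen. Once the length and GC trend was subtracted, the stiff to soft medians were -0.12 for the adaptors, -0.01 for the relay, -0.05 for the FOXO list and -0.06 for the growth hormone axis, on the other side of 0 in each list.

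**Figure D4:**
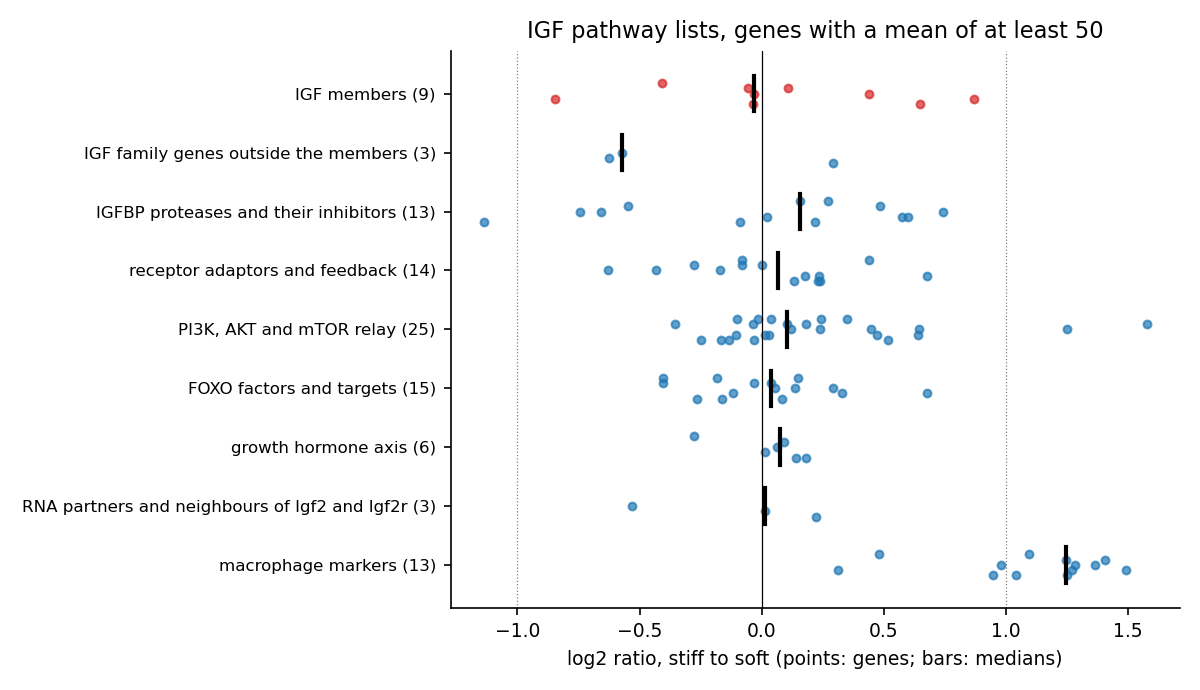
Stiff to soft log2 ratios (x axis) of genes whose mean reached 50 in the IGF gene set, 7 related lists and the macrophage markers (y axis, number of genes in brackets), with black bars for medians and dotted lines at 1 in size. The macrophage markers have a median of 1.25, and the IGF gene set spans -0.85 to 0.87 around a median of -0.03.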

How the data were processed

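Stranded poly(A) RNA libraries were sequenced, 1 per stiffness. The submitters' processing notes name bcl2fastq 2.20.0, STAR 2.7.9a, featureCounts of Subread 2.0.1, DESeq2 1.34.0 and GRCm39, without roles; the annotation and the strand setting are not given in the sources used here. The deposited signal values are gene counts that the authors scaled with DESeq2 size factors, per the file names. The 3 deposited files were identical, and columns were assigned by sample title. All values (100%, tolerance 1e-06 reads) were whole multiples of the lowest value above 0 in their column, which gave whole reads. A count-based test needs replicates and could not be fitted, so it calls no gene and no p-value is given. Reads per library and counting intervals are given above; amplified reads are not independent molecules.

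Genes were matched by symbol or Ensembl identifier to GENCODE vM39 on GRCm39; promoters are RefSeq windows on GRCm38.p6, used for their sequence. Protein sequences were not used here. The length and GC trend is a local linear regression, weighted against outliers, on log2 length and GC content with 300 neighbours per gene. Alternatives were pseudocounts of 0.1 and 10, scaling by total reads, upper quartile and TMM (edgeR 4.0.16), other minimum means, the trend, and other lengths. The functions were tested on simulated data. The genes, lists and settings were chosen with earlier results of these data known. Named beside the 10 genes were, in each list, genes past 1 in any comparison, the highest and lowest stiff to soft ratio, the markers and the nearest patterns; exceptions are marked where they are named. R 4.3.3 and Python 3.11.15 were used, with pandas 2.3.3, numpy 2.4.6, scikit-learn 1.9.0 and scipy 1.17.1.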

Additional observations from a re-analysis of the deposited data

How the results depend on the processing

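With 1 library per stiffness, no paired analysis was possible because each group has a single replicate, and leaving out a replicate could not be run. Under TMM and both pseudocounts all 30 log2 ratios of the 10 genes stayed inside their counting intervals with the same sign. Scaling by total reads or by the upper quartile shifted stiff to soft ratios by -0.06 and left 25 of 30 inside; the sign of Igfbp7 from intermediate to stiff changed under total reads. With the length and GC trend subtracted 11 of 27 stayed inside. The ratio of Igf2r was then -0.0820 from soft to stiff, -0.0532 from soft to intermediate and -0.0267 from intermediate to stiff, and that of Igf1r was -0.0587 from soft to intermediate. The sign also changed for Igfbp6 from soft to stiff (0.00456) and Igfbp7 from intermediate to stiff (-0.0101). The stiff to soft ratios then put 1 gene of the family lower past 1 (Igfbp5) and 1 higher past 0.5 (Igf1), beside 0.411% and 7.68% of all genes. The family median was then -0.0503 from soft to intermediate and -0.0101 from intermediate to stiff, both above 0 as deposited. From soft to intermediate 336 of all genes (2.88%) passed 0.5. The protease list had a stiff to soft median of -0.0602 with the trend subtracted, and a stiff to intermediate median of 0.00616 with a mean of at least 200. The cause was not tested.

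Counts over all genes depend on the filter by construction. From soft to stiff, soft to intermediate and intermediate to stiff, 822, 215 and 451 genes passed 1 when the minimum mean was 10, 238, 8 and 72 when it was 200, and 5827, 3646 and 3904 with no filter. Past 0.5 they were 2907, 1366 and 2007, then 1218, 270 and 612, then 9063, 7520 and 8136. A pseudocount of 10 gave 10 genes past 1 from soft to intermediate. The share of Igfbp4 among the binding proteins on the soft, intermediate and stiff plates was 70.2%, 70.6% and 70.8% over the union of exons, 77.8%, 78.1% and 78.7% by reads, and 56.9%, 56.6% and 56.4% with the shortest Igfbp7 transcript, an alternative chosen after seeing the data. So were each gene at its shortest coding transcript, which moved Igf1 by 13.9 times, Igf2 by 9.86, Igfbp4 by 7.73 and Igf1r by 3.51, and the union of exons for quotients between genes. Depth limits Igf2, at 3 to 5 reads.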

Other observations

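Imprinted and RNA-binding partners of the family were taken from a list of 7, of which 3 passed the minimum. H19, the maternally expressed RNA that lies 70545 bases from Igf2 on chromosome 7, had 169 normalized counts on the soft plate, 152 on the intermediate and 117 on the stiff plate. Its stiff to soft log2 ratio was -0.53 (-0.89 to -0.18), while Igf2 itself stayed at 3 to 5 reads. Airn, the paternally expressed antisense RNA that overlaps Igf2r on chromosome 17, was below the minimum, with 27, 20 and 8 reads. Its stiff to soft log2 ratio was -1.64 (-3.10 to -0.58), and since the strand setting of the counting is not given, reads of Airn and of Igf2r introns cannot be told apart. Igf2bp2, which binds Igf2 mRNA, was the highest of the 3 past the minimum at 0.22 (0.10 to 0.35), with 1004, 1143 and 1170 normalized counts. Its paralogue Igf2bp1, below the minimum with 35, 46 and 63 reads, stood at 0.83 (0.23 to 1.49). Airn and Igf2bp1 were named after their values were seen. Igf2os and Mir483 had no read.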
